A study of Mus musculus with 3 samples.

Results

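The Wnt family was examined in mesangial cells sorted from the glomeruli of adult mouse kidneys. Mesangial cells are contractile cells of the pericyte type that lie between the glomerular capillaries and support them. The set holds the genes for Wnt ligands, R-spondins, Frizzled and other receptors, and secreted inhibitors. The rule also takes in β-catenin, the Axins and the TCF/LEF factors, which act inside the cell. Members were chosen by gene symbol from probe sets that name exactly 1 gene. The rule used none of their values, but it was set with earlier results of these data known. The rule found 57 genes among 18687 named genes, and all but Wnt4, which has 2 probe sets, rest on a single probe set. Tcf7, which the rule also names, is not analysed here.

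All 3 samples belong to 1 group. Each is 1 kidney of an adult male CD-1 mouse that carries the transgene Tg(Meis1-EGFP)FO156Gsat, a bacterial artificial chromosome with green fluorescent protein under Meis1 regulatory sequence. The cells are those of the sieved and trypsin-digested glomeruli that the sort for this fluorescence kept, labelled as glomerular and extraglomerular mesangium. The kidneys were not pooled, and the labels name no treatment and do not say whether they came from separate mice. The error given is the spread between these samples, which may be partly technical. With no control population, no comparison between conditions was possible.

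Wnt proteins are lipid-modified secreted signals that bind Frizzled receptors on the cell surface. With the co-receptors Lrp5 or Lrp6 they stop the Axin complex from destroying β-catenin, which then acts with TCF/LEF factors on target genes. With Ror receptors they act without β-catenin, on cell shape and movement. R-spondins, read by Lgr receptors, strengthen the signal. Sfrp, Frzb, Wif1 and Dkk proteins are grouped here by name as its secreted inhibitors. Not every one of them need block the signal in every cell, and what they do in these cells was not tested. In the kidney the pathway is known for its part in building nephrons in the embryo.

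Values are the deposited log2 signals, from 1 array per sample, and means are given ± SD with n = 3 samples. A gene was called above background when each of its 3 values exceeded the 95th percentile of the probe sets on that array for olfactory and vomeronasal receptors, trace amine receptors and keratin-associated proteins, which kidney cells should not express. This silent-gene threshold was 7.48 in sample 1, 7.46 in sample 2 and 7.41 in sample 3, and 4.72% of the 1251 silent genes passed it. With the threshold raised by 1, 0.959% of them did. Precision is limited by the small number of arrays. Probe sets differ in affinity, so a gene is set against the threshold and not against another gene.

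The cell type label was checked with marker genes. In every sample all 12 mesangial markers exceeded the threshold by more than 1, with means from 9.41 to 13.10, and Meis1 read 9.39 ± 0.05. Of the markers of other cells, 10 of 10 endothelial, 5 of 7 podocyte, 4 of 6 parietal epithelial, 6 of 10 tubule, 6 of 8 fibroblast and 3 of 10 macrophage genes passed the threshold. Of all named genes 58.0% passed it, and 32.7% passed it by more than 1. In every sample 6 endothelial, 2 podocyte, 1 parietal epithelial and 4 fibroblast genes, and no tubule or macrophage gene, exceeded the threshold by more than 1. The tubule gene Umod did so in samples 1 and 2 and Calb1 in samples 2 and 3. Of the podocyte genes the transcription factor gene Wt1, at 10.15 ± 0.08, and Cdkn1c, at 8.85 ± 0.02, passed by more than 1, Podxl, Synpo and Dach1 by less, and the slit diaphragm gene Nphs1, at 7.39 ± 0.06, and Ptpro, at 6.75 ± 0.08, did not pass. Of the macrophage genes Adgre1 had 5.56 and Ptprc 5.95 on each array. The share of each member's signal that came from such cells was not tested. In bulk RNA, fewer cells that express a gene and less RNA per cell cannot be told apart.

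The pattern turned on a few genes whose promoters are shown here, from 250 bases before to 50 bases after the start of the gene, as RefSeq gives them for the mouse build GRCm38.p6. Sfrp2 and Dkk2 are the secreted inhibitors that lay above the threshold, Frzb is the inhibitor that differed most between samples, and Wnt4 is the Wnt ligand that lay more than 1 above the threshold. The Sfrp2 window is chr3:83766071-83766370 on the plus strand, that of Dkk2 chr3:132085042-132085341 on the plus strand, that of Frzb chr2:80447347-80447646 on the minus strand and that of Wnt4 chr4:137277385-137277684 on the plus strand. Capitals mark matches, on either strand, to the TCF/LEF core CTTTGA, the Meis and Tgif core TGACAG or the TATA box TATAAA.
Sfrp2: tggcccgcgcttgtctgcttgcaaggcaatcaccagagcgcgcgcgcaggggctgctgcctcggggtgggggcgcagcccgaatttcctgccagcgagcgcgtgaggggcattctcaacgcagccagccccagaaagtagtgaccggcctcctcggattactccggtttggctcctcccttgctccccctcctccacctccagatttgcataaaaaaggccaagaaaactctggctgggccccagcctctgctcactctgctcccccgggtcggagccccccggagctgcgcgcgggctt
Dkk2: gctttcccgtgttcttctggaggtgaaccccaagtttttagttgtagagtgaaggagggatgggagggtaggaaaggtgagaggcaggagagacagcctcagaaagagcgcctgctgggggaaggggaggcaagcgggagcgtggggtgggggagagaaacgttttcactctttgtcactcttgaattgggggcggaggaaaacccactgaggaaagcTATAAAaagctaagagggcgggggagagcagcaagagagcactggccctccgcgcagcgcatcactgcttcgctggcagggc
Frzb: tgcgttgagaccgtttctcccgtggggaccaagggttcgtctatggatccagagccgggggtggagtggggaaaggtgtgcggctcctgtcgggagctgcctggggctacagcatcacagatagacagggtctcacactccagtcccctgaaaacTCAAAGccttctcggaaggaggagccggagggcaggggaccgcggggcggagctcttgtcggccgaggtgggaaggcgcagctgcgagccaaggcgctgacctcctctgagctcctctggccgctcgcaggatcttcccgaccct
Wnt4: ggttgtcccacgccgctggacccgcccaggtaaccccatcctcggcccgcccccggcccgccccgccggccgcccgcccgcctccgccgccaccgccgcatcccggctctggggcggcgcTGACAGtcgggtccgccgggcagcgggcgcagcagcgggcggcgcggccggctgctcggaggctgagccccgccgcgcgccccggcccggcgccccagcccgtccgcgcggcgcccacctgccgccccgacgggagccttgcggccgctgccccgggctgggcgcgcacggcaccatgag
The Sfrp2 window held none of the 3 motifs. The Dkk2 window held 1 TATA box, which 13.6% of the 32851 promoter windows in the table hold. The Frzb window held 1 TCF/LEF core on the other strand, a motif in 16.0% of windows. The Wnt4 window held 1 Meis and Tgif core, a motif in 19.2% of windows. No match overlapped another. These matches describe the letters of the windows and are not known binding sites.

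Many members lay close to the threshold, and a small number stood far above it. Of the 57 members, 26 (45.6%) were called, against 58.0% of all named genes. The order of these shares turned with the threshold at the 90th percentile, where 43 members (75.4%) were called, against 68.8% of all named genes. In every sample 13 members (22.8%) exceeded the threshold by more than 1, against 32.7% of all named genes. The median member lay 0.01 above the threshold, and the median named gene 0.35 above it. Of the 31 members not called, 27 lay at or below the threshold on every array, and the others, Frzb, Sfrp1, Wnt2b and Lgr6, passed it on 1 or 2 arrays.

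The members clustered near the threshold. The means of 28 members (49.1%) were within 0.5 of it, against 26.2% of the named genes outside the family. No member lay more than 1.5 below it, where 10.8% of the named genes outside the family and 62.7% of the silent genes were found. The call of a member near the threshold therefore depended on where the threshold was set.

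**Figure D1:**
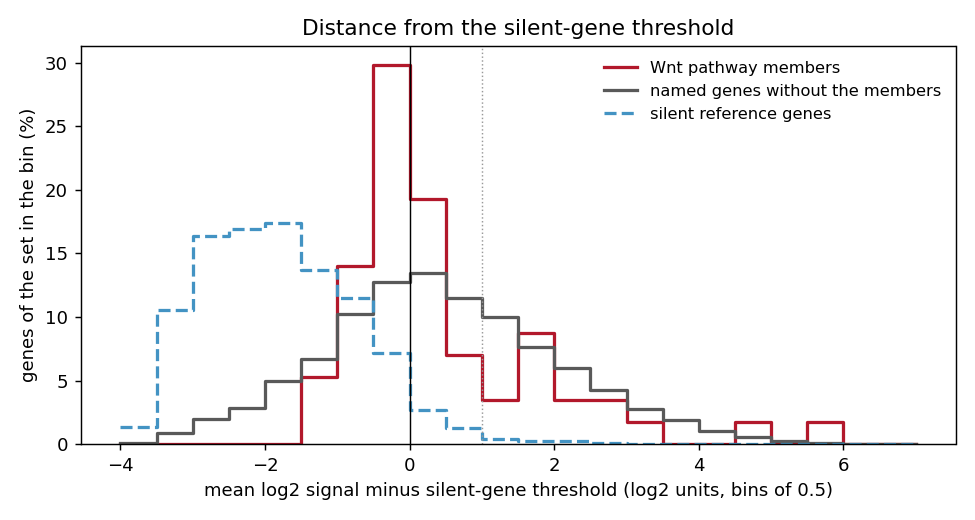
Distribution of the mean log2 signal minus the silent-gene threshold, as the percentage of genes in bins of 0.5 log2 units, for the 57 Wnt pathway members, the 18630 other named genes and the 1251 silent reference genes. The solid vertical line marks the threshold and the dotted line a distance of 1. The tallest bin of the members, with 29.8% of them, lies just below the threshold, and 2 bins beyond 4.5 hold Dkk2 and Sfrp2.

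The secreted inhibitors split into a pair of genes far above the threshold and the rest near or under it. Sfrp2 encodes a secreted protein with a Frizzled-like domain that binds Wnt proteins. It had 13.22, 13.19 and 13.19 in samples 1, 2 and 3, a mean of 13.20 ± 0.02, which was 5.75 above the threshold. Dkk2 encodes a ligand of Lrp6 that can interfere with its use by Wnt proteins. It had 12.50, 12.42 and 12.42 in samples 1, 2 and 3, a mean of 12.44 ± 0.05, which was 5.00 above the threshold. The 3 samples lay within 0.08 of each other for both genes, and these were the 2 of 10 inhibitor genes (20.0%, against 58.0% of all named genes) called. At the 90th percentile threshold 8 of the 10 (80.0%) were called, against 68.8% of all named genes.

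None of the other 8 inhibitor genes was called. Sfrp4 had 6.32, Sfrp5 6.87, Dkk1 7.30, Dkk3 7.18, Dkk4 7.13 and the Wnt-binding inhibitor Wif1 7.15, each identical on the 3 arrays and under the threshold. Sfrp1, a relative of Sfrp2, had 7.21 in sample 1, 7.90 in sample 2 and 7.63 in sample 3. It passed the threshold in samples 2 and 3, by less than 1, and was called without sample 1, where it did not pass. Frzb, a decoy receptor of the same type, had 9.02 in sample 1 and 7.31 in both of the others. Only sample 1 was above the threshold, by more than 1. The promoter windows of Sfrp2 and Dkk2, given above, had G and C contents of 66.0% and 57.7%, and that of Frzb 64.7%.

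Wnt ligands were mostly close to the threshold or under it. Of the 19 genes 7 passed the threshold (36.8%, against 58.0% of all named genes), and only Wnt4 passed it by more than 1. Wnt4, which drives the formation of nephrons in the embryo, had 9.13 on each of the 3 arrays, 1.68 above the threshold. Its other probe set read 7.06 on each array, under the threshold, so the call for Wnt4 rests on the choice of the probe set with the higher mean. Wnt5b had 8.10, 7.99 and 8.10 in samples 1, 2 and 3, and its mean of 8.06 ± 0.06 lay within 1 of the threshold.

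The other called ligands each had a single value on all 3 arrays. Wnt10a had 7.94, Wnt9b, the ureteric signal that starts nephron formation in the embryo, 7.82, Wnt9a 7.78, Wnt7b, which the embryonic collecting duct uses to form the medulla, 7.69, and Wnt10b 7.61. The means of all 5 lay within 0.5 of the threshold. Wnt2b had 7.49, 7.49 and 7.40 in samples 1, 2 and 3, missed the threshold in sample 3 alone and was called without that sample.

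The remaining 11 ligands were under the threshold on every array. Wnt11, a signal of the branching ureteric tips, had 7.34 and Wnt6 7.33. Wnt3a had 7.10, Wnt16 7.06 ± 0.00, Wnt2 6.98, Wnt8a 6.91 and Wnt5a, the main ligand of Ror receptors, 6.85. Wnt3 had 6.62 ± 0.05, Wnt7a 6.56, Wnt8b 6.41 ± 0.02 and Wnt1, the founding member of the family in mouse, 5.97. Values without an SD were the same on all 3 arrays.

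Some Wnt genes are neighbours in the genome. Among protein-coding genes of the GRCm38.p6 annotation, 4 pairs of members are immediate neighbours, and all are pairs of Wnt genes. Wnt6 and Wnt10a lie on chromosome 1, Wnt3a and Wnt9a and also Wnt9b and Wnt3 on chromosome 11, and Wnt10b and Wnt1 on chromosome 15. In each pair 1 gene was called and the other not, so 4 of the 8 genes were called, against 58.0% of all named genes. Wnt10a, Wnt9a, Wnt9b and Wnt10b passed the threshold, each by under 0.5 in its mean. Their neighbours Wnt6, Wnt3a, Wnt3 and Wnt1 did not. How often other neighbouring genes differ in their calls was not counted, so the split is not a result about these pairs. Wnt6 and Wnt3a also lay within 0.5 of the threshold in their means, so the call does not separate them from Wnt10a and Wnt9a. Wnt3 and Wnt1 lay 0.83 and 1.48 under it. Since probe sets differ in affinity, the genes of a pair were not set against each other. At the threshold raised by 1 none of the 8 genes was called, against 32.7% of all named genes.

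R-spondins and their receptors were not called. Of the 4 R-spondin genes and the 3 Lgr receptor genes, 0 of 7 were called, against 58.0% of all named genes. At the 90th percentile threshold 4 of the 7 were called (57.1%, against 68.8%). Rspo1 had 7.39 on each array, Rspo3 7.23, 7.23 and 7.05 in samples 1, 2 and 3, Rspo4 7.16 ± 0.01 and Rspo2 6.60 ± 0.05. Lgr4 had 7.21 and Lgr5, which marks stem cells in the gut, 6.64 on each array. Lgr6 had 7.44 on each array and passed the lower threshold of sample 3 alone. Lgr6, Rspo1, Lgr4, Rspo3 and Rspo4 lay within 0.5 of the threshold, so a low level would not be told apart from background.

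**Figure D2:**
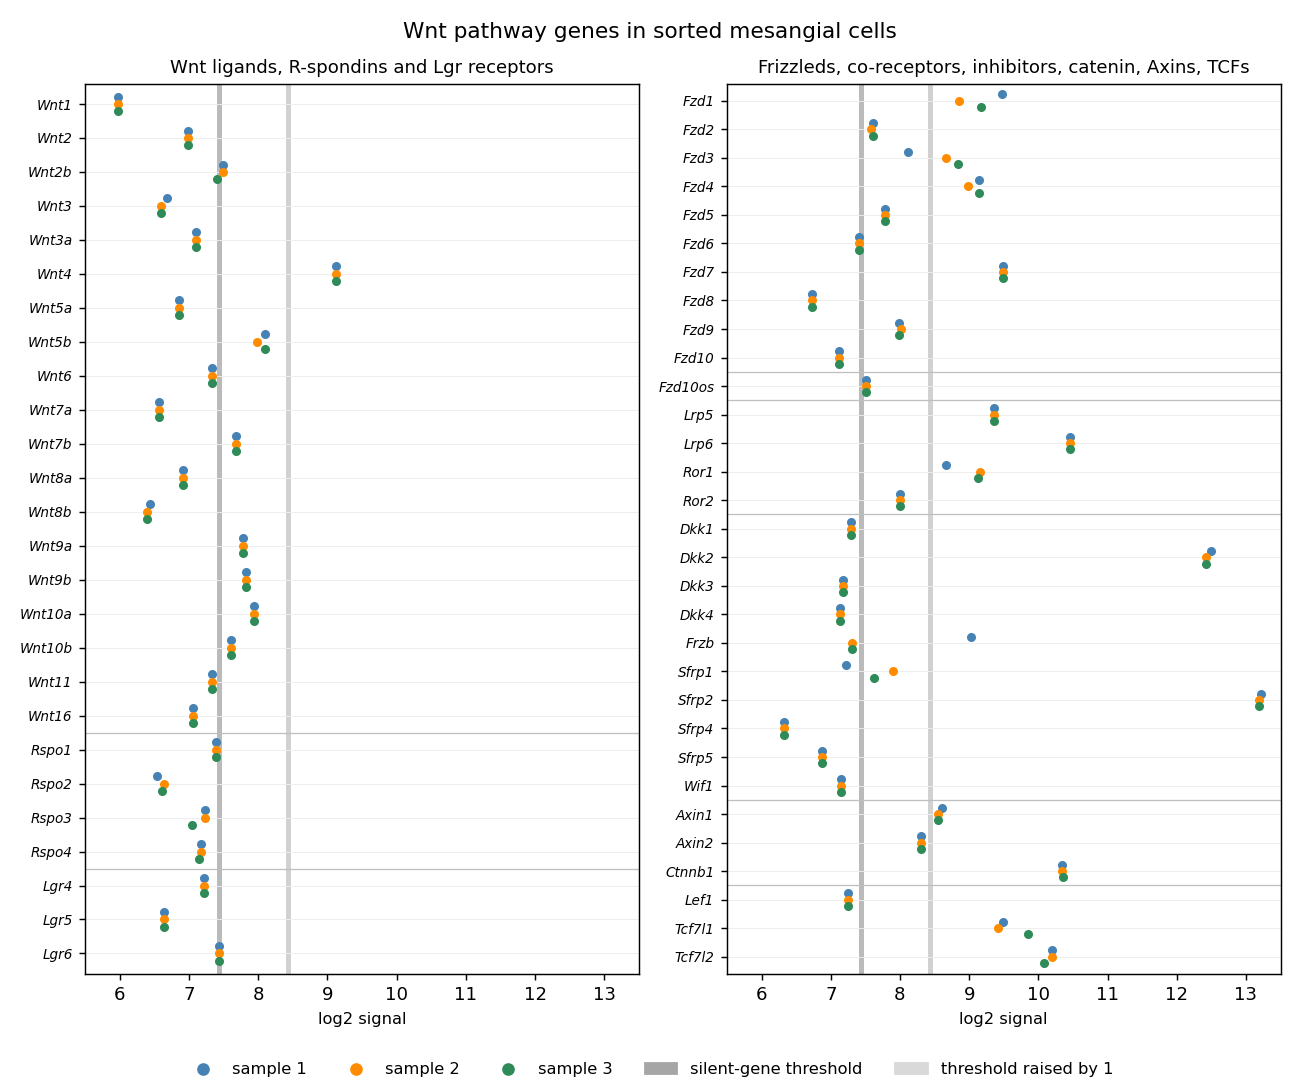
Log2 signal of all 57 Wnt pathway members in samples 1, 2 and 3, with 1 point per sample and gene, grouped by role. The dark band spans the silent-gene thresholds of the 3 arrays (7.41 to 7.48) and the pale band the same raised by 1. Sfrp2 and Dkk2 stand above 12, the co-receptors lie to the right of the dark band, and the Wnt ligands, R-spondins and Lgr receptors gather around it, apart from Wnt4.

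Most Frizzled receptor genes passed the threshold. They were 7 of 10 (70.0%, against 58.0% of all named genes). Fzd7, Fzd1 and Fzd4, 3 of 10 (30.0%, against 32.7% of all named genes), passed it by more than 1 in every sample. Neither share is far from that of all named genes. Fzd7 had 9.50 on each array. Fzd4, which also serves as the receptor for Norrin in retinal vessels, had 9.14, 8.98 and 9.14 in samples 1, 2 and 3, a mean of 9.09 ± 0.09. Fzd1 had 9.48, 8.86 and 9.17 in samples 1, 2 and 3, a mean of 9.17 ± 0.31.

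Fzd3, a receptor of planar polarity signalling, had 8.12 in sample 1, 8.67 in sample 2 and 8.84 in sample 3, a mean of 8.54 ± 0.38. It passed the threshold in every sample and by more than 1 in samples 2 and 3. Fzd9 had 7.99 ± 0.01, Fzd5 7.78 and Fzd2 7.60 ± 0.02, all within 1 of the threshold. Fzd6, at 7.40, Fzd10, at 7.12, and Fzd8, at 6.72, did not pass it on any array. The noncoding gene Fzd10os, which matches the rule by its name but encodes no receptor, had 7.51 on each array, 0.06 above the threshold. Whether its probes share signal with Fzd10 was not tested.

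All 4 co-receptor genes lay above the threshold, 3 of them by more than 1, against 58.0% and 32.7% of all named genes. Lrp6 had 10.46 and Lrp5 9.36 on each of the 3 arrays, 3.01 and 1.91 above the threshold. Ror1 had 8.66 in sample 1, 9.16 in sample 2 and 9.13 in sample 3, a mean of 8.99 ± 0.28, and every sample passed by more than 1. Ror2 had 8.00 on each array, 0.55 above the threshold. In all, 11 of the 14 Frizzled and co-receptor genes (78.6%) and 9 of the 33 genes for secreted members (27.3%) were called, against 58.0% of all named genes. By more than 1 the counts were 6 (42.9%) and 3 (9.09%), against 32.7% of all named genes. The count of 14 leaves out the 3 Lgr receptor genes, of which 0 were called. The contrast depended on the threshold. At the 90th percentile 11 of 19 Wnt ligands (57.9%) and 8 of 10 secreted inhibitors (80.0%) were called, against 68.8% of all named genes. So were 10 of 11 genes with a Frizzled name, Fzd10os among them, and 4 of 4 co-receptors.

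Of the 6 measured members that act inside the cell, the catenin, Axin and TCF/LEF genes, 5 passed the threshold (83.3%, against 58.0% of all named genes) and 4 passed it by more than 1 (66.7%, against 32.7%). Ctnnb1, which encodes β-catenin, had 10.34, 10.34 and 10.36 in samples 1, 2 and 3, a mean of 10.35 ± 0.01. β-catenin also links cadherins to the cytoskeleton, so its transcript is not particular to Wnt signalling. Axin1, the scaffold of the destruction complex, had 8.57 ± 0.03. Axin2, a scaffold that is itself induced by the pathway, had 8.31 on each array, 0.86 above the threshold and not above the threshold raised by 1.

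Of the TCF/LEF factors, Tcf7l2 had 10.19, 10.19 and 10.08 in samples 1, 2 and 3, a mean of 10.15 ± 0.07. Tcf7l1, known mostly as a repressor, had 9.49, 9.42 and 9.86, a mean of 9.59 ± 0.23. Both lay more than 2 above the threshold in their means. Lef1, which many cells induce when the pathway is active, had 7.25 on each array and did not pass.

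Most other genes of the pathway, taken from lists of known components, passed the threshold. The lists were chosen with earlier results of these data known. Of 102 measured genes 79 (77.5%) lay above the threshold and 52 (51.0%) above the threshold raised by 1, against 58.0% and 32.7% of all named genes. The lists differed, and only 10 of 18 further surface genes and 8 of 16 targets outside the family passed the threshold. Genes that also act outside the pathway were not set apart. Wnt secretion had 10 of 11 genes above the threshold, among them the Wnt carrier gene Wls at 11.00 ± 0.07 and Porcn, whose enzyme attaches the lipid to Wnt proteins, at 8.20, both chosen after their values were seen. The cytoplasmic list had 21 of 24 above the threshold and 16 more than 1 above it. Examples were the destruction complex genes Apc at 9.35 and Csnk1a1 at 11.29 ± 0.08, Amer1 at 8.75 ± 0.07 and the ubiquitin ligase gene Btrc at 9.81. The nuclear list had 17 of 18 above the threshold and 13 more than 1 above it.

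The planar polarity list includes general regulators of the cytoskeleton such as Rhoa and Rac1. It had 16 of 20 (80.0%) above the threshold and 8 (40.0%) more than 1 above it, against 58.0% and 32.7% of all named genes. Of 18 further surface genes 10 passed and 6 did so by more than 1, neither far from the shares of all named genes. Among the 6 were Reck at 9.77 and Adgra2 at 9.18 ± 0.07, which in brain vessels make a co-receptor for Wnt7 proteins. Apcdd1, a membrane inhibitor of the pathway, had 8.67 ± 0.21 and Igfbp4 10.67. Kremen1, whose product is a Dkk receptor, had 7.40 and was not above the threshold, while Kremen2 had 7.84 and was, both chosen after their values were seen.

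Around the threshold lay many target genes of the pathway. Of 21 measured targets, 5 of them members, 10 (47.6%) lay above the threshold and 4 (19.0%) above the threshold raised by 1, against 58.0% and 32.7% of all named genes. Those 4 were Dkk2, Apcdd1, Ccnd1 at 10.48 ± 0.21, a cyclin gene with many other inputs, and the Notch ligand gene Jag1 at 8.81. Of the feedback targets most tied to the pathway, Axin2, Notum at 7.72 ± 0.04 and Znrf3 at 7.62 passed by less than 1. Nkd1 at 7.16, Rnf43 at 6.96 ± 0.01, Sp5 at 7.31, Lef1, Lgr5 and Dkk1 did not pass. Without a control population these levels say nothing of how active the pathway was.

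**Figure D3:**
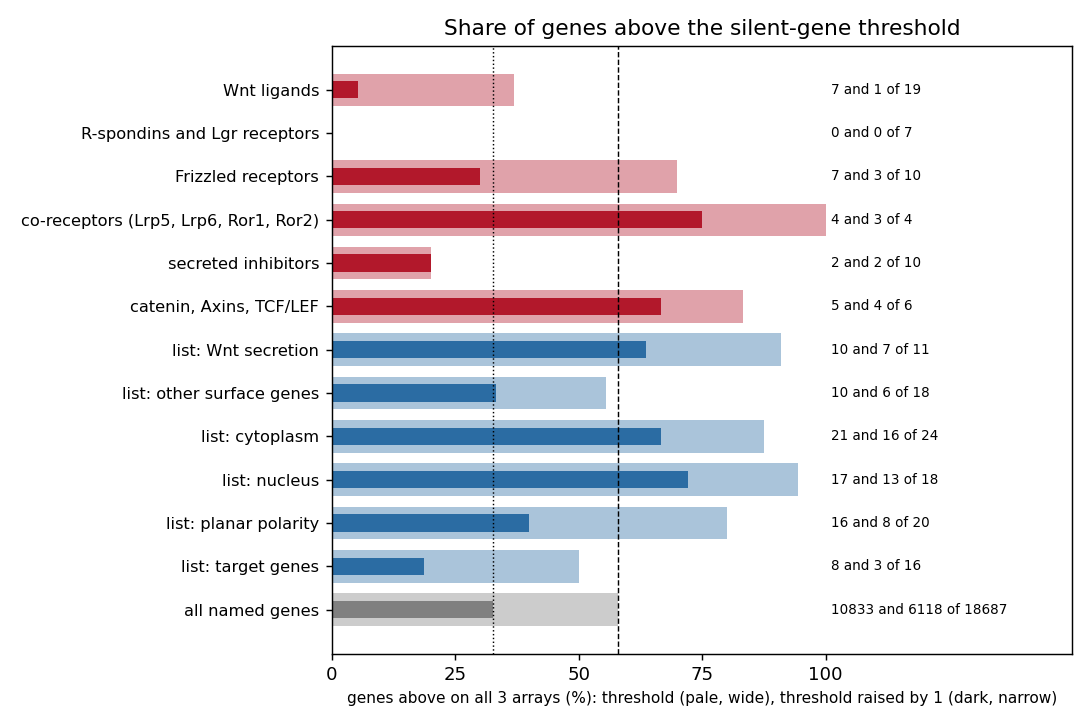
Percentage of genes that passed the silent-gene threshold in every sample (pale, wide bars) and above the threshold raised by 1 (dark, narrow bars), for 6 groups of members in red, for 6 lists of other pathway genes without the members in blue and for all named genes in grey. The numbers give the count for each bar and the number of genes, and the dashed and dotted lines mark 58.0% and 32.7% of all named genes. R-spondins with Lgr receptors have no bar, and the cytoplasmic and nuclear lists reach 87.5% and 94.4%.

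Few members differed between the samples. For 35 members (61.4%) the deposited value was the same on all 3 arrays, as it was for 51.1% of all named genes, and 16 had the same value on exactly 2 arrays. An SD of 0 is therefore no measure of error, and the spread of such genes may be understated. The range over the 3 arrays was above 0.5 for 4 members, Frzb, Fzd1, Fzd3 and Sfrp1, which is 4 of 57 against 3.43% of all named genes.

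Sample 1 held the highest or the lowest value in each of these 4 genes. It was highest for Frzb, by 1.71 over both other samples, and for Fzd1, by 0.62 over sample 2 and 0.31 over sample 3. It was lowest for Fzd3, by 0.55 under sample 2 and 0.72 under sample 3, and for Sfrp1, by 0.69 and 0.42. Without sample 1 the range was above 0.5 for 0 of the 57 members, against 1.36% of all named genes, a share under 1 gene in 57. Ror1, with a range of 0.50, and Tcf7l1, with a range of 0.43, came next, and sample 3 was the highest for Tcf7l1.

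Frzb had the widest range of the members, and 99.9% of named genes had a smaller one. A value in sample 1 more than 1 above both other samples was found for 20 named genes (0.107%), of which Frzb was the only member. The marker lists had these means: that of the tubule list was 7.85, 7.93 and 7.64 in samples 1, 2 and 3, that of the fibroblast list 7.98, 8.11 and 8.03, and that of the parietal epithelial list 8.39, 8.29 and 8.41. The means of the mesangial, podocyte, endothelial and macrophage lists differed by less than 0.09 between samples. Single markers moved more than their lists. Umod had 9.51, 9.18 and 8.22 in samples 1, 2 and 3, the proximal tubule gene Kap 8.44, 8.51 and 7.17 and Calb1 7.72, 8.66 and 8.49. The parietal epithelial genes Cldn1 and Cd24a had 7.69, 6.67 and 7.68, and 11.65, 12.29 and 12.09. The fibroblast gene Dcn had 7.56, 8.21 and 7.76. Calb1, Cd24a and Dcn were lowest in sample 1 and highest in sample 2, as was Sfrp1, while Umod, Kap and Cldn1 had other orders. Sample 1 was not more than 1 above both other samples for any of these markers. It was for the peptide transporter gene Slc15a2, which is in no marker list, at 7.72, 6.04 and 6.04 in samples 1, 2 and 3. That gene was chosen after its values were seen. The part of other cell types in the differences of Frzb, Fzd1, Fzd3 and Sfrp1 was not tested.

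**Figure D4:**
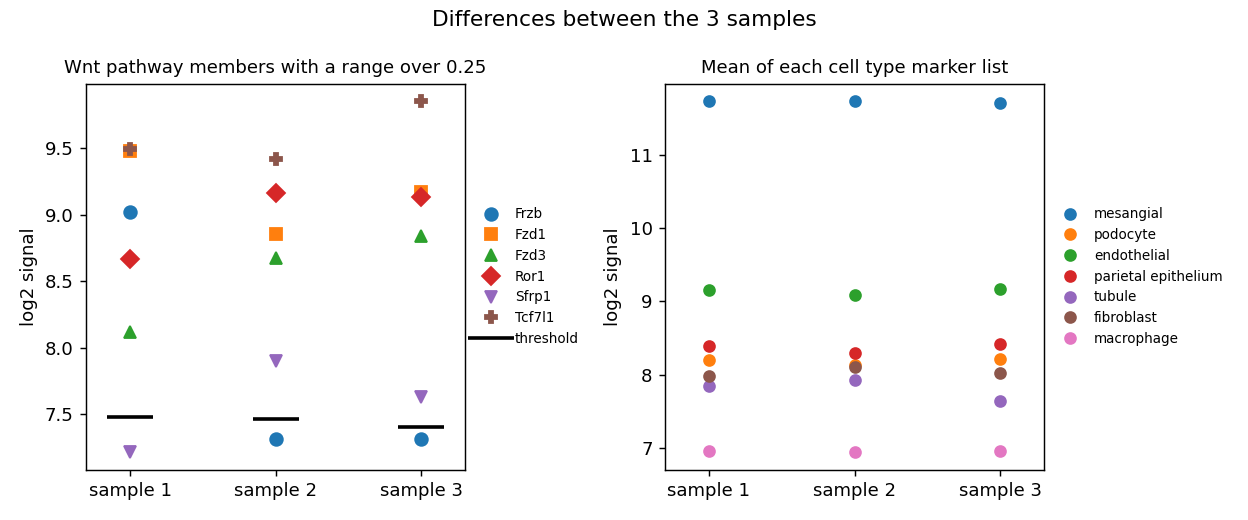
Left, log2 signal of the 6 members with a range over 0.25 in samples 1, 2 and 3, with the silent-gene threshold of each array as a black bar. Right, the mean log2 signal of each cell type marker list in the same samples. Frzb is at 9.02 in sample 1 and under the threshold in samples 2 and 3. The list means average over single markers that moved more, such as Umod and Kap.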

How the data were processed

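Sorted mesangial cells from 3 mouse kidneys were measured on 1 Affymetrix gene array each. RNA was amplified with 1 round of the WT-Ovation Pico system and labelled with biotin, per the labels' protocols. The authors deposited log2 signals per probe set. Per the submitters' processing notes the software was Affymetrix Expression Console, and the sources used here give no version, background correction, normalization or summary method. Base 2 was inferred from a maximum of 14.39, and the centring is unknown. The array medians were 7.53, 7.56 and 7.54.

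Of 35557 probe sets, 21789 had exactly 1 gene symbol in the platform annotation, 1621 had several and 12147 were not listed. Symbols were updated by Entrez number with the GRCm38.p6 RefSeq table, which matched 21698. The probe set with the highest mean stood for a gene. The threshold came from 1267 silent probe sets. Values were used as deposited, with no test, since there is 1 group. Python 3.11.15 with numpy 2.4.6 and pandas 2.3.3 was used.

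All members are named, other pathway genes by an alphabetical rule except where stated. The members and lists were chosen with earlier results of these data known. Alternatives changed the percentile, the margin, the silent genes, the rule over arrays, the probe set, the array centring, the samples and the cut on the range. Promoter windows were found for 38 of 57 members (66.7%), too few for a check of base composition over the set, which is void.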

Additional observations from a re-analysis of the deposited data

How the results depend on the processing

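Of 88 counts under alternatives, 72 stayed within 1.5 times the reported count, and no alternative was run beyond those given in the processing summary and the removal of Fzd10os, which was chosen after the data were seen and left 7 Frizzled genes above the threshold. At the 90th percentile the counts were 43 members (75.4%), 11 Wnt ligands, 8 secreted inhibitors and 4 R-spondin and Lgr genes, while 68.8% of all named genes passed. At the 99th percentile they were 13 members, 1 Wnt ligand and 3 Frizzled genes (35.3% of named genes). With the threshold raised by 1 they were again 13 members, 1 Wnt ligand and 3 Frizzled genes, and 52 other pathway genes (32.7% of named genes). The same 13 members were lost in both cases: Axin2, Fzd10os, Fzd2, Fzd3, Fzd5, Fzd9, Ror2, Wnt10a, Wnt10b, Wnt5b, Wnt7b, Wnt9a and Wnt9b. Sfrp2 and Dkk2 were called under every alternative run. With olfactory receptors alone 1 R-spondin or Lgr gene, Lgr6, passed. With means over the arrays 4 secreted inhibitors passed, Frzb and Sfrp1 added. With the probe set of the lowest mean Wnt4 was lost.

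Without 1 sample the counts ranged from 26 to 27 members, 7 to 8 Wnt ligands, 2 to 3 secreted inhibitors and 79 to 80 other pathway genes, with 8 Frizzled genes (Fzd10os among them), 0 R-spondin and Lgr genes, 4 co-receptors and 5 catenin, Axin and TCF/LEF genes each time. The number of members with a range above 0.5 was 0 without sample 1, 2 without sample 2 and 4 without sample 3, against 1.36%, 2.1% and 2.06% of named genes. A range above 0.25 was found for 6 members and above 1 for 1, Frzb. The causes were not tested. Shifting the arrays to a common median could change no call, since the threshold of each array shifts with it. It is therefore no check of the calls, though its counts are among those that stayed. No paired analysis was possible because there is 1 group. Members within about 0.5 of the threshold cannot be told apart from background on these arrays.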

Other observations

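Of the 19 other named genes whose value in sample 1 was more than 1 above both other samples, as for Frzb, 5 were small nucleolar or microRNA genes. All of these were chosen after their values were seen. The cell adhesion gene Lsamp had 9.10 in sample 1, 7.47 in sample 2 and 7.46 in sample 3, and the peptide transporter gene Slc15a2 had 7.72, 6.04 and 6.04. The small nucleolar RNA gene Snora20 had 9.63, 7.37 and 5.61. Samples 2 and 3 had 6 and 7 named genes more than 1 above both others, none of them a member.

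The surface gene Tspan12 had 11.61, 11.98 and 12.13 in samples 1, 2 and 3. Its product assists Fzd4 in Norrin signalling in the retina. Ryk, the gene of a Wnt-binding receptor, had 9.99 ± 0.09 (n = 3). Tspan12 and Ryk lay more than 1 above the threshold. The Norrin gene Ndp had 6.66 ± 0.02 and did not pass it. The polarity gene Prickle2 had 8.22, 7.71 and 7.71 in samples 1, 2 and 3. These genes were also chosen after their values were seen.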
